A study of Arabidopsis thaliana with 4 samples.

Results

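The genes described here are the loci numbered AT2G05000 to AT2G13700, which span the pericentromere of chromosome 2 of Arabidopsis thaliana, on both sides of its centromere. They were taken by locus number, and the region was chosen with earlier results of these data known. The array carried 308 probes for 245 of these loci, of 34185 probes and 25347 loci named in all. Testing asked for a probe signal well above background, in either channel, on 3 or 4 of the arrays, and 172 pericentromeric genes met it. By the same rule 2990 of the other 3711 chromosome 2 loci on the array were tested, and 20555 genes in all.

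The pericentromere is the heterochromatin beside a centromere. In Arabidopsis it is densely methylated at cytosines, rich in transposons and pseudogenes and poor in expressed genes. VIM1, VIM2 and VIM3 are nuclear proteins that bind methylated DNA and help MET1, the CG methyltransferase, to keep CG methylation through replication. Loss of that methylation is known to release the silencing of transposons and of some genes near them. The reference sequence of this pericentromere also holds a large insertion of mitochondrial DNA, whose genes have near-identical copies in the organelle.

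Each of 4 Agilent 2-colour arrays set RNA of seedlings with the genotype vim1,2,3, named in the study's design as a triple mutant (Cy5), against RNA of wild-type seedlings of the strain Col (Cy3). Both groups were 14 days old, had grown on 1/2 B5 medium under 16 h light and 8 h dark, and were collected 6 h into the light period. Alleles and seedlings per sample are not stated in the labels used here. The arrays are described as independent biological samples, and the p-values below measure the spread between them. Each value is a log2 ratio of vim1,2,3 over Col, and calls, higher or lower, needed both a 2-fold change and a limma p under 0.05 after adjustment over all genes tested. In whole seedlings, fewer cells of a type and less RNA per cell cannot be told apart.

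The dyes had the same orientation on the 4 arrays, so a dye effect cannot cancel. The median spot signal on arrays 1 to 4 was 949, 967.5, 1718 and 1312 for vim1,2,3 and 670.5, 637, 1270.5 and 966 for Col. The share well above background was 69.6%, 68.6%, 81.1% and 81.5% in vim1,2,3, and 75.8%, 77.8%, 85.2% and 84.3% in Col. Arrays 1 and 2 were thus dimmer than arrays 3 and 4 in both groups, which is also how VIM2 and VIM3 divide the arrays. VIM1 was below 0 on all 4 arrays, but was no longer called without array 1 (adjusted p = 0.0769) or array 3 (adjusted p = 0.129). VIM2 was at -1.42 and -1.31 on arrays 1 and 2 but at 1.82 and 1.11 on arrays 3 and 4. VIM3 was at -1.06 and -1.29 on arrays 1 and 2 but at 1.61 and 0.25 on arrays 3 and 4. The genotype is therefore given as labelled, and results are also given without arrays 3 and 4. All 3 seedling leaf markers (RBCS1A, CAB1 and LHCB3) were well above background on every array in both groups, with summed signals of 125000 to 158700 in vim1,2,3 and 129000 to 242300 in Col. RBCS1A and CAB1 were saturated on 4 arrays in vim1,2,3 and on 2 in Col, so these sums are capped unequally. The root markers PYK10, AT5G17820 and BGLU21 summed to 3306 to 61160 in vim1,2,3 and 7814 to 73890 in Col, and 0 of 3 were called. The seed storage gene CRA1 and the pollen gene VGDH1 were not well above background on any array. The seed storage genes CRU3 and SESA1 were so on 2 arrays in vim1,2,3 and on 0 in Col. The seed gene OLEO1 was so on 2 arrays in vim1,2,3 and 3 in Col, and the pollen gene VGD1 on 2 and 4. The 4 seed genes summed to 474 to 764 in vim1,2,3 and 399 to 559 in Col, and the 2 pollen genes to 269 to 406 in vim1,2,3 and 232 to 417 in Col. The 3 flower markers AP3, PI and SEP1 summed to 672 to 961 in vim1,2,3 and 1347 to 4306 in Col, and 1 of 3, PI, was called lower (-2.20 ± 0.69, SD, n = 4, adjusted p = 0.0113; without array 3, adjusted p = 0.0822). What part, if any, these differences in marker level have in the values below was not tested.

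Of the 172 pericentromeric genes tested, 17 were higher in vim1,2,3 (9.88%), 6 were lower (3.49%) and 149 were not called. Among the other chromosome 2 genes 85 were higher (2.84%) and 55 lower (1.84%), and over all genes tested the shares were 3.22% and 2.13%. A rise of 8-fold or more was found for 7 pericentromeric genes (4.07%), against 12 of the other chromosome 2 genes (0.401%) and 0.511% of all genes. Among genes well above background in Col on at least 3 arrays, it was found for 5 of 166 pericentromeric genes (3.01%). On that basis it was found for 11 of 2960 other chromosome 2 genes (0.372%). The median rise among the called genes was 2.28 in the pericentromere and 1.40 on the rest of chromosome 2, while the median fall was -1.24 in both. The middle of the distribution differed little: the median over all 172 genes was 0.07, with -0.01, 0.15, -0.05 and 0.12 on arrays 1 to 4, and -0.04 over the other chromosome 2 genes. The plot of log2 ratios in gene order shows most pericentromeric genes around 0, with 97 above and 75 below, and a few high points above them.

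**Figure D1:**
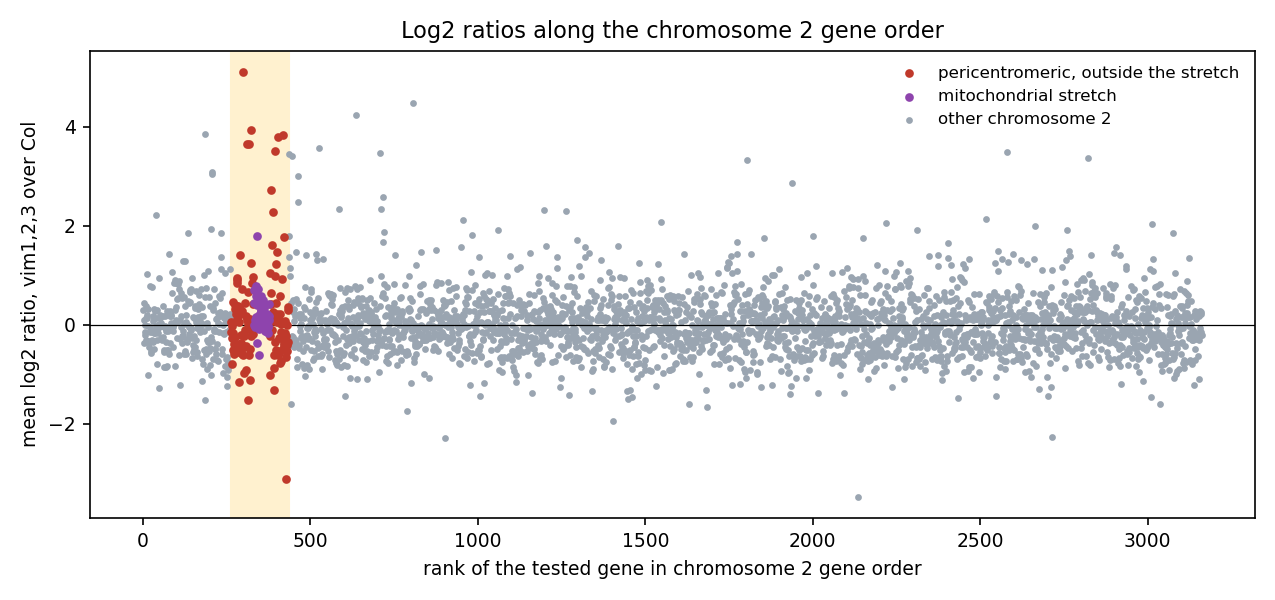
Mean log2 ratio of vim1,2,3 over Col (vertical axis) for each tested chromosome 2 gene, by its rank in gene order (horizontal axis). The shaded band holds the 172 pericentromeric genes, whose means run from -3.11 to 5.10, and the purple points are the 48 genes of the mitochondrial stretch, where 1 gene was called.

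The signals of the 4 arrays did not overlap between vim1,2,3 and Col for 39 of the 172 genes (22.7%), against 14.5% of the other chromosome 2 genes and 14.7% of all genes. All 17 higher and all 6 lower genes were among the 39. A further 9 genes above 0 (5.23%) and 5 below 0 (2.91%) passed the adjusted p but not 2-fold, against 2.88% and 4.05% of the other chromosome 2 genes. At an unadjusted p under 0.05 there were 39 genes above 0 (22.7%) and 27 below (15.7%), against 14.9% and 19.5% of the other chromosome 2 genes and 15.1% and 18.2% of all genes.

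These counts depend on how many arrays are used. Without array 1, 2, 3 or 4 the fit called 16, 18, 9 and 11 pericentromeric genes higher and 3, 7, 1 and 2 lower. On arrays 1 and 2 alone, where VIM2 and VIM3 follow the label, limma called 3 of 168 pericentromeric genes higher (1.79%) and 0 lower. The 3 were AT2G05915, AT2G07215 and AT2G12935. Of 2974 other chromosome 2 genes it called 4 higher (0.1345%) and 0 lower. At an unadjusted p under 0.05 in limma those arrays had 21 of the 168 above 0 and 10 below, and 155 and 185 of the 2974. As a value with no test, the mean of arrays 1 and 2 reached 2-fold higher for 19 pericentromeric genes (11%) and 5.72% of the other chromosome 2 genes. The mean of arrays 3 and 4 did so for 21 (12.2%) and 5.99%. Of the 17 called genes, 15 were at least 2-fold higher on arrays 1 and 2 and 17 on arrays 3 and 4. The exceptions were AT2G07750 and AT2G11015, at 0.82 and 0.71 on arrays 1 and 2. AT2G13350 averaged 1.09 on arrays 1 and 2 and 2.45 on arrays 3 and 4, and AT2G09838 averaged 1.83 and 3.61. Of the lower genes, ABCC13 and AT2G10930 averaged -0.57 and -0.69 on arrays 1 and 2, and the other 4 lay between -2.97 and -1.03. All 17 were above 0, and all 6 lower genes below 0, on every array that measured them.

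None of the 17 higher genes has a symbol in the RefSeq gene table, where 2 of the 6 lower and 43 of the 149 other genes have one, so most are named here by locus with no role given. AT2G05915 led them. Its normalized signal was 24484, 35478, 18682 and 14075 in vim1,2,3 on arrays 1 to 4, against 674, 942, 634 and 408 in Col. The lowest vim1,2,3 signal was far above the highest in Col, and the log2 ratio was 5.10 ± 0.16 (SD, n = 4, adjusted p = 4.27e-05).

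AT2G07215 had 3137, 2428, 2898 and 2637 in vim1,2,3 and 192, 184.5, 185 and 166 in Col, a 15.2-fold rise (3.93 ± 0.14, SD, n = 4, adjusted p = 6.41e-05). Its Col signal stood well above background on 4 of 4 arrays, and its log2 ratio was 4.91 with the processed signals and with the series matrix. AT2G12935 had 8549, 4206, 5929.5 and 4646 in vim1,2,3 and 646, 294, 362 and 353 in Col (3.83 ± 0.15, SD, n = 4, adjusted p = 6.59e-05). AT2G11778 had 7015, 10655, 9367 and 8958 in vim1,2,3 and 589, 600.2, 686 and 709.8 in Col (3.79 ± 0.25, SD, n = 4, adjusted p = 0.000106). In these 3 genes the ratios of the 4 arrays lay close together and the groups were far apart, while the signal of AT2G12935 varied over 2-fold within each group. AT2G06420 was measured on 3 arrays, since its spot on array 2 carried an outlier mark. It had 3104, 4354 and 5575 in vim1,2,3 and 371, 258 and 399 in Col on arrays 1, 3 and 4 (3.65 ± 0.52, SD, n = 3, adjusted p = 0.00276).

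A further pair of large risers lay near the detection limit in wild type. AT2G06908 had 2866, 1131, 2285 and 2034 in vim1,2,3 and 132, 167, 151 and 183 in Col, where it was well above background on 2 of 4 arrays (3.65 ± 0.71, SD, n = 4, adjusted p = 0.00158). AT2G10965 had 1483, 1867.5, 1536 and 1707 in vim1,2,3 and 180.2, 167, 112 and 127 in Col, also well above background on 2 of 4 arrays (3.51 ± 0.34, SD, n = 4, adjusted p = 0.000235). The groups did not overlap for either gene, with array 2 the lowest in vim1,2,3 for AT2G06908. With the processed signals the log2 ratio was 5.04 for AT2G06908 and 4.63 for AT2G10965, and with the series matrix 4.26 and 4.59. These 7 genes are the risers of 8-fold or more, and each stayed called without any 1 array.

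Among the smaller rises, AT2G10920 and AT2G07676 also stayed called without any 1 array. AT2G10920 had 53370, 55368, 14874 and 20185 in vim1,2,3 and 9768, 12172, 3312 and 4053 in Col (2.28 ± 0.13, SD, n = 4, adjusted p = 0.000548). Both groups were higher on arrays 1 and 2, and the ratio was even over the 4 arrays; with the channels compared without the array as a block the adjusted p was 0.0644. AT2G07676 had 22247, 38384, 39914 and 49021 in vim1,2,3 and 7796.5, 10290, 13644 and 10812 in Col (1.79 ± 0.32, SD, n = 4, adjusted p = 0.00466). Its second probe was at 0.15, so the probes disagree, and with their mean (0.97) the gene was not called. Both genes were saturated in vim1,2,3 on 1 array, which caps the ratio there.

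AT2G09838 varied most among the called genes. It had 206, 963, 1468 and 1136 in vim1,2,3 and 108, 146, 111 and 101 in Col (2.72 ± 1.26, SD, n = 4, adjusted p = 0.0252). Array 1 stood below the other 3 in vim1,2,3, and Col was well above background on 1 array only. It was not called without array 3 (2.38, adjusted p = 0.131) or array 4 (2.46, adjusted p = 0.106), and the scanner's processed signals gave 4.18.

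AT2G13350 had 584, 644, 859.8 and 865 in vim1,2,3 and 302, 277, 151 and 165 in Col (1.77 ± 0.80, SD, n = 4, adjusted p = 0.0264). AT2G11620 had 1637, 1932, 2660 and 3227 in vim1,2,3 and 801, 692, 860.4 and 956 in Col (1.47 ± 0.32, SD, n = 4, adjusted p = 0.00968). AT2G07180 had 41055, 53682, 40866 and 50414 in vim1,2,3 and 15281, 22724, 20158 and 21097 in Col, with vim1,2,3 saturated on 2 arrays (1.24 ± 0.17, SD, n = 4, adjusted p = 0.00975). In these 3 genes the groups did not overlap, but none was called without array 3 (adjusted p = 0.132, 0.0807 and 0.0617) or array 4 (adjusted p = 0.106, 0.0595 and 0.0608).

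The other 4 higher genes were dim. AT2G05752 had 422, 346, 227 and 237 in vim1,2,3 and 135, 125, 82.5 and 112 in Col. The Col signal never stood well above background, so the gene is given as at least 2.64-fold higher (adjusted p = 0.00797). AT2G10550 had 312, 527, 329 and 420.3 in vim1,2,3 and 136, 144, 94.0 and 144 in Col (1.60 ± 0.31, SD, n = 4, adjusted p = 0.00673). In Col only 1 array had it well above background. With the processed signals, which differ in both background correction and dye normalization, the log2 ratio was 3.60 for AT2G05752, against 1.41, and 3.29 for AT2G10550. AT2G11015 had 175, 237 and 189 in vim1,2,3 and 106.8, 80.0 and 70.9 in Col on arrays 2 to 4, its spot on array 1 being left out (1.23 ± 0.46, SD, n = 3, adjusted p = 0.0377). AT2G07750 had 339, 474, 568 and 469.5 in vim1,2,3 and 291, 178, 225 and 206 in Col (1.04 ± 0.55, SD, n = 4, adjusted p = 0.0421), and array 1 was the closest to no difference, at 0.22. Without array 3 the calls of AT2G05752 (adjusted p = 0.0736), AT2G10550 (0.065), AT2G11015 (0.172) and AT2G07750 (0.171) were lost. Those of AT2G11015 and AT2G07750 were also lost without array 4 (0.145 and 0.141) and with the processed signals (2.82, adjusted p = 0.0537, and 1.35, adjusted p = 0.0707). AT2G11015 was not called without array 1 (adjusted p = 0.0639), nor AT2G07750 without array 2 (adjusted p = 0.0728).

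A gene that is dim in wild type could be tested only through its vim1,2,3 signal. Of the 172 genes, 166 passed the filter on Col alone, and the 6 that did not were all called higher. Of the 30 other chromosome 2 genes that did not, 28 were above 0 and 7 were called higher (23.3%). Among the 166, 11 were higher (6.63%), against 78 of the 2960 other chromosome 2 genes that passed on Col alone (2.64%). The 73 pericentromeric loci with no tested probe had mean log2 ratios of -0.51 to 0.84 with a median of 0.05, and 0 reached 2-fold in either direction. A strong rise would tend to bring a locus past the filter, so this cannot show that the 73 were unchanged. Of the 73, 47 were not well above background in either group on any array.

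**Figure D2:**
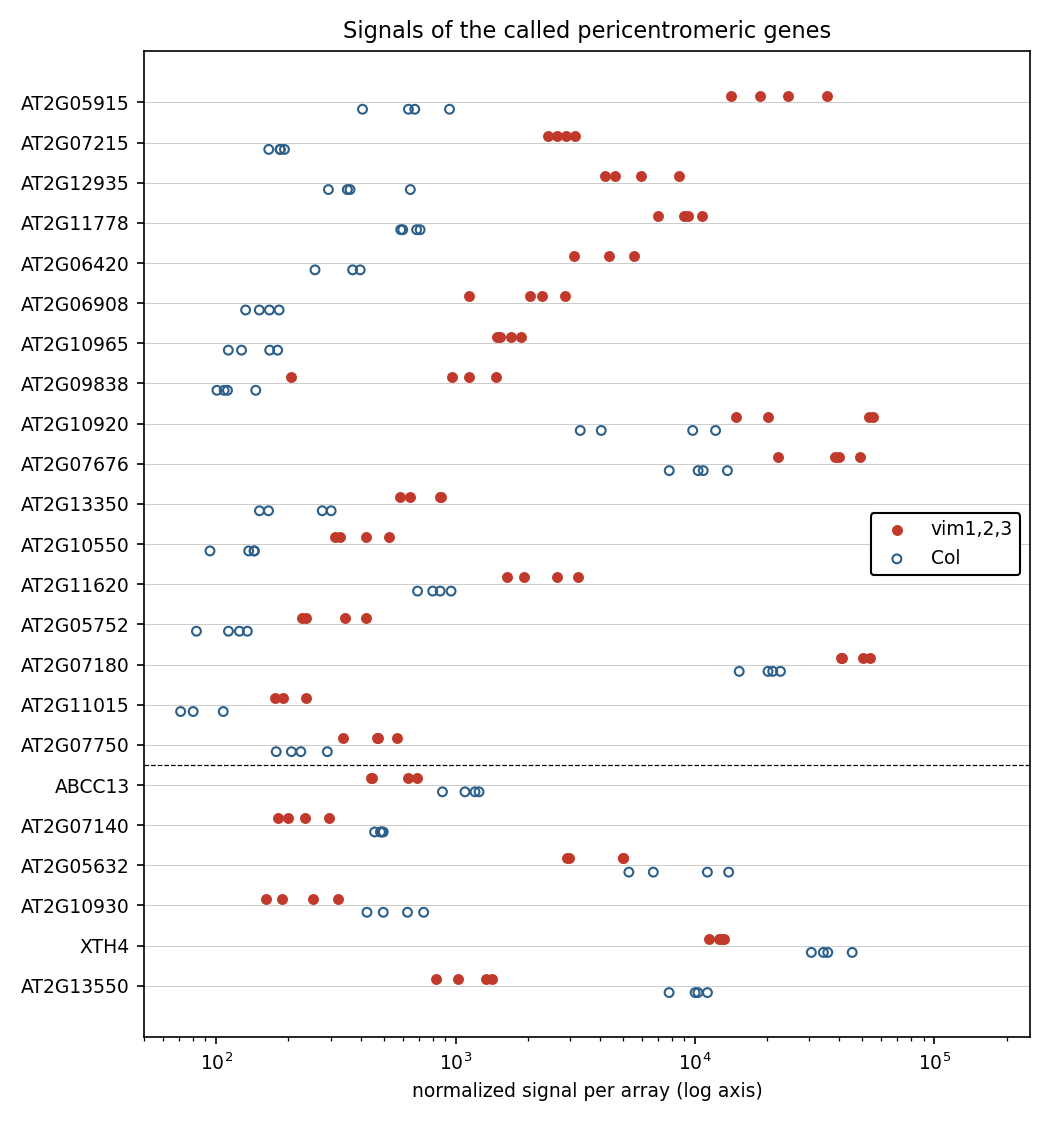
Normalized signal on each array (horizontal log axis) of the 23 called pericentromeric genes, in order of log2 ratio, with vim1,2,3 as filled red points and Col as open blue points. The dashed line parts the 17 higher genes from the 6 lower ones, and for no gene do the 2 groups overlap.

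Of the 6 genes that were lower in vim1,2,3, AT2G13550 fell furthest. It had 1423, 1332, 829.5 and 1022 in vim1,2,3 and 11255, 10278, 7784 and 10001 in Col (-3.11 ± 0.17, SD, n = 4, adjusted p = 0.000162). Its second probe was at -1.54, the mean of both at -2.33, and the gene stayed called without any 1 array. XTH4, a xyloglucan endotransglucosylase/hydrolase that remodels cell wall polymers, had 12567, 12910, 11466 and 13169 in vim1,2,3 and 45303, 35829, 34335 and 30583 in Col. Its log2 ratio was -1.53 ± 0.26 (SD, n = 4, adjusted p = 0.00641), with -0.85 on a second probe, and without array 3 it was not called (adjusted p = 0.0642).

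AT2G05632 had 5009, 5019, 2922 and 2975 in vim1,2,3 and 11252, 13803, 6688 and 5287 in Col (-1.16 ± 0.26, SD, n = 4, adjusted p = 0.016). ABCC13, a membrane transporter of the ABC class, had 688, 631, 445 and 444 in vim1,2,3 and 1093, 879.8, 1203 and 1251 in Col (-1.02 ± 0.52, SD, n = 4, adjusted p = 0.0406). Its fall was smaller on arrays 1 and 2, at -0.67 and -0.48, than on arrays 3 and 4, at -1.43 and -1.495. AT2G10930 had 324, 253, 161 and 188 in vim1,2,3 and 498, 426, 734 and 629 in Col (-1.33 ± 0.76, SD, n = 4, adjusted p = 0.0415), and its fall was likewise smaller on arrays 1 and 2, at -0.62 and -0.75, than on arrays 3 and 4, at -2.19 and -1.74. AT2G07140 had 295, 199, 235 and 181 in vim1,2,3, where it was well above background on 2 arrays, and 498, 489.7, 458 and 485 in Col (-1.11 ± 0.31, SD, n = 4, adjusted p = 0.0204). None of these 4 genes was called without array 3 (adjusted p between 0.105 and 0.167) or array 4 (between 0.0541 and 0.144). Without array 1 those of AT2G05632 (adjusted p = 0.0571), ABCC13 (0.0862) and AT2G10930 (0.0678) were lost. AT2G07140 was at -1.91 with the processed signals and -1.71 with the series matrix, and AT2G10930 was at -2.24 with the series matrix.

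The plot of shares by segment gives the called genes by position. From AT2G05000 to AT2G05999, 2 of 40 tested genes were higher and 1 was lower. Among the 39 that passed the filter on Col alone, 1 was higher (2.56%), against 2.64% of the other chromosome 2 genes. From AT2G06000 to AT2G07660, 4 of 27 were higher and 2 lower. Past the mitochondrial stretch and up to AT2G13000, 9 of 40 were higher (22.5%) and 2 lower. Of those 9, 4 passed the filter only through vim1,2,3, where they are high, and among the 36 genes that passed on Col alone 5 were higher (13.9%). On that basis 3 of 26 were higher in the segment from AT2G06000 to AT2G07660 (11.5%). From AT2G13000 to AT2G13700, where all 17 passed on Col alone, 1 of 17 was higher (5.88%) and 1 lower. In the flanks, 3 of 61 genes from AT2G04000 to AT2G04999 were higher (4.92%), and 5 of 32 from AT2G13701 to AT2G14700 (15.6%). All 32 passed the filter on Col alone, so their share lay above the 13.9% found on that basis after the stretch. The higher genes thus did not end at the last locus of the range. No test was made of these differences in share.

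**Figure D3:**
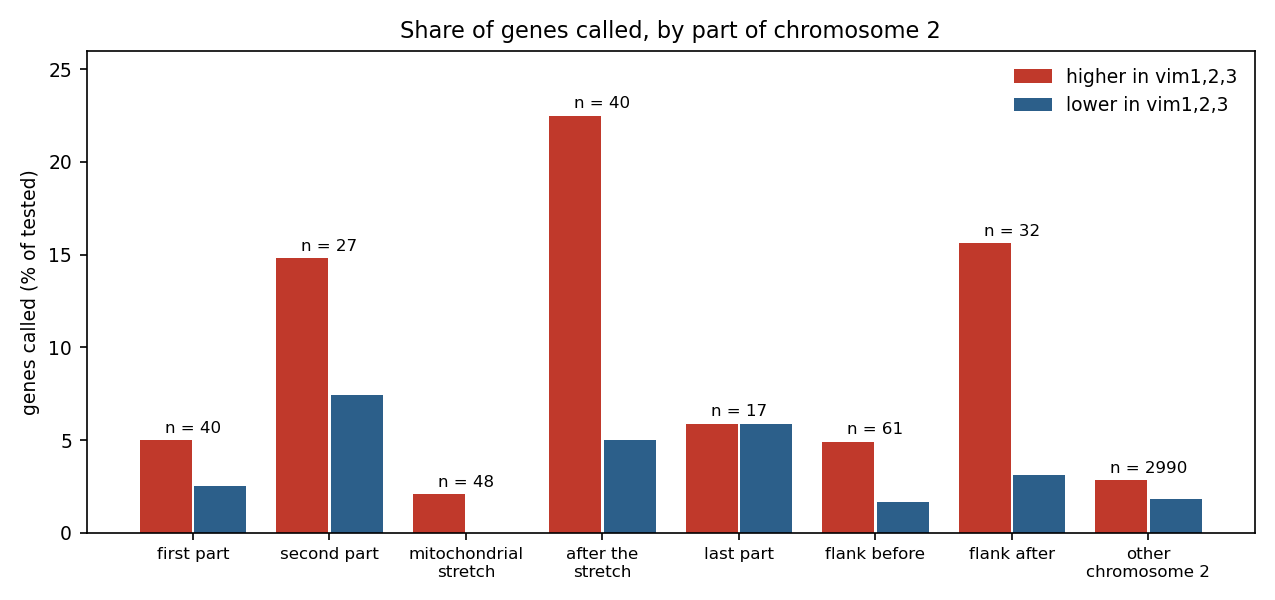
Percent of tested genes called higher (red) and lower (blue) in vim1,2,3 in 5 segments of the pericentromere, in the flanks and on the rest of chromosome 2, which here includes the flanks, with the number tested above each pair of bars. First part is AT2G05000 to AT2G05999, second part AT2G06000 to AT2G07660, and last part AT2G13000 to AT2G13700. The segment after the mitochondrial stretch has the tallest bar, at 22.5%. Among genes that passed the filter on Col alone its share was 13.9%, below the 15.6% of the flank after the range.

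The mitochondrial stretch was taken as the loci between AT2G07660 and AT2G07680 in gene order, 187 in the RefSeq table, of which 48 were tested. Only AT2G07676 was called there (2.08%), and 0 genes were lower. At an unadjusted p under 0.05, 9 of the 48 were above 0 (18.8%) and 1 below (2.08%), against 15.1% and 18.2% of all genes. The median of the 48 genes was 0.18. It was -0.05, 0.25, -0.03 and 0.56 on arrays 1 to 4, with 21 of 48, 34 of 47, 22 of 48 and 42 of 48 genes above 0. The genes of the stretch thus lay mostly above 0 on arrays 2 and 4 and about evenly around 0 on arrays 1 and 3. The other 124 pericentromeric genes had medians of 0.00, 0.10, -0.07 and -0.01. A probe for this stretch cannot be told here from one for the mitochondrial genome itself. Without the stretch, 16 of 124 genes were higher (12.9%), 6 were lower (4.84%) and the median was -0.01. These 16 include the 6 genes that passed the filter only through vim1,2,3, where they are high.

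**Figure D4:**
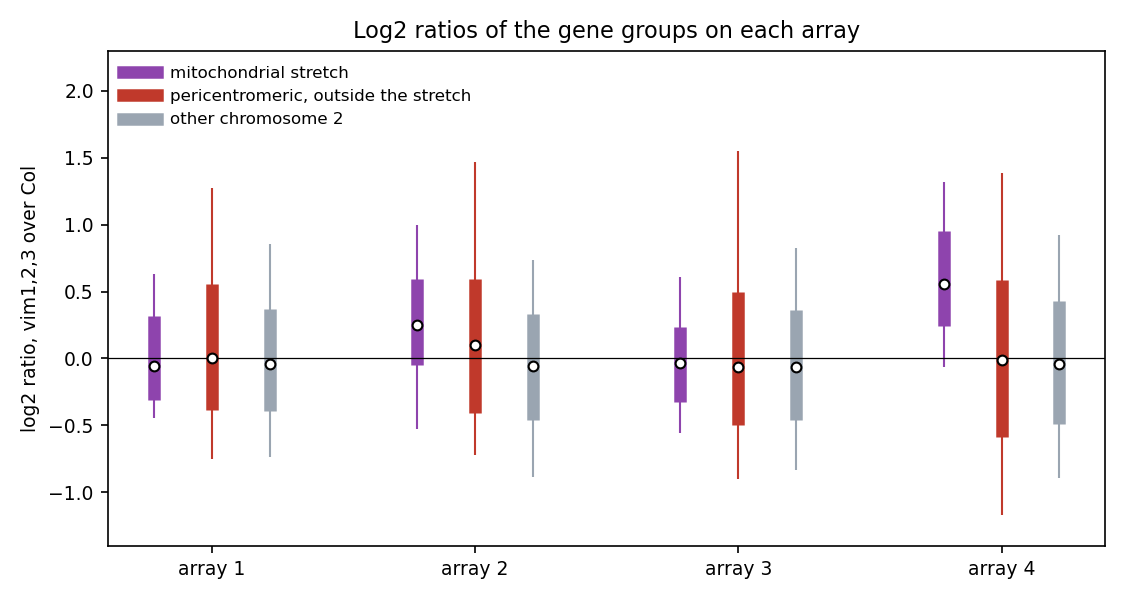
Log2 ratio of vim1,2,3 over Col on each array (vertical axis) for the 48 genes of the mitochondrial stretch, the other 124 pericentromeric genes and the other chromosome 2 genes. The white point is the median, the thick bar joins the lower and the upper quartile, and the thin line joins the lowest and the highest decile; the stretch has a median of 0.56 on array 4 and -0.05 on array 1.

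Pseudogenes make up 656 of the 1606 pericentromeric loci in the RefSeq table (40.9%), against 391 of 4706 (8.31%) on the rest of chromosome 2, and all 172 tested genes are annotated as protein coding. Outside the mitochondrial stretch, a pseudogene was the immediate neighbour of 14 of the 16 higher genes (87.5%), 2 of the 6 lower genes (33.3%) and 65 of the 102 genes not called (63.7%). On the rest of chromosome 2 it was the neighbour of 11 of 85 higher genes (12.9%), 8 of 55 lower genes (14.5%) and 217 of 2850 genes not called (7.61%). AT2G05915 and AT2G10965 were the 2 higher genes with no pseudogene beside them. The 16 higher genes include 6 that passed the filter only through vim1,2,3, where they are high. These shares are a description of the gene table's order and were not tested.

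Among the 23 called genes, 8 had a called gene as the nearest tested gene on either side. The share of uncalled genes with such a neighbour was not computed, so this count cannot show grouping. Outside the mitochondrial stretch, 12.9% of the tested genes were higher and 4.84% lower. AT2G07180 and AT2G07215 were a pair of higher genes in this sense, as were AT2G07750 and AT2G09838, and AT2G11620 and AT2G11778. The genes of these pairs were 6, 17 and 18 untested loci apart. AT2G10920 (2.28) and AT2G10930 (-1.33) moved in opposite directions with 1 untested locus between them, and the next gene, AT2G10931, was below 2-fold at -0.88 ± 0.39 (SD, n = 4, adjusted p = 0.0394). Both genes beside AT2G05915 were below 0 and not called, AT2G05910 at -0.44 and AT2G05920 at -0.61. Of the called genes, 6 overlap another gene model in the table (AT2G05915, AT2G07215, AT2G10920, AT2G10965, ABCC13 and AT2G13550), and the part of the overlapping model in their signal was not tested.

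The pericentromere also holds genes with well-known roles, and most of these were not called. Of 4 photosystem and photorespiration genes 0 were called, and 0 had an unadjusted p under 0.05 in limma (median -0.04, against -0.05 over all genes). LHCB2.1, a light-harvesting protein of photosystem II, had 34673, 42321, 23190 and 13070 in vim1,2,3 and 38702, 11707, 16385 and 50545 in Col. The groups overlapped, with log2 ratios of -0.16, 1.85, 0.50 and -1.95 on arrays 1 to 4. The first tested gene, LHCB2.2, followed the same pattern, with -0.18, 1.63, -0.22 and -1.81. PSBX, a small subunit of photosystem II, was at 0.10 and saturated in vim1,2,3 on all 4 arrays. AGT, a photorespiratory aminotransferase, was at -0.40 ± 0.57 (SD, n = 4, adjusted p = 0.282).

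Of 6 tested genes of glycine-rich proteins, 0 were called, with a median of 0.61, and 3 were above 0 at an unadjusted p under 0.05 in limma, as were 15.1% of all genes. GRP9 had 5427, 6055, 15270 and 13404 in vim1,2,3 and 2122, 3607, 10528 and 6087 in Col. Its groups overlapped because both were brighter on arrays 3 and 4, and its log2 ratio of 0.94 ± 0.37 (SD, n = 4, adjusted p = 0.0328) did not reach 2-fold. AT2G05510 was at 0.91 ± 0.29 (SD, n = 4, adjusted p = 0.03), and GRP-3, a cell wall protein, at 0.84 ± 0.40 (SD, n = 4, adjusted p = 0.0438). The other 3 lay between 0.08 and 0.39. Of these, GRP3S (0.08) was at 0.43 and 0.55 on further probes, and AT2G05540 (0.39) was at -0.20 on a second probe. GRP9 was called without array 2, at 1.01.

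Of 5 genes of lipid, sterol and oxylipin metabolism, 0 were called and all 5 were below 0, with a median of -0.61 and 3 at an unadjusted p under 0.05 in limma. Over all genes tested 54.1% were below 0, and 18.2% were so at that p. MOD1, the enoyl-ACP reductase of fatty acid synthesis, had 7514, 7863, 5916 and 6360.5 in vim1,2,3 and 15748, 11511, 13436 and 14023 in Col. The groups did not overlap, and its log2 ratio of -0.99 ± 0.29 (SD, n = 4, adjusted p = 0.0254) stopped just short of 2-fold. It was called lower without array 2 (-1.13), with array weights (-1.05), with median centring (-1.04) and from either deposited ratio (processed signals -1.01, series matrix -1.04). PLA2-ALPHA, a secreted phospholipase, was at -0.61 ± 0.29 (SD, n = 4, adjusted p = 0.0647), and CAS1, OPR3 and MGDC lay between -0.62 and -0.43. OPR3 was at -0.43 on the probe used but at 0.09 on a second probe, so its sign depends on the probe.

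The remaining named groups held few tested genes. Of 2 DNA replication genes 0 were called: MCM5, a subunit of the replicative helicase, was at -0.24 and RPA1A, a subunit of the single-strand binding protein, at 0.13. Of 4 genes of RNA processing and transcription 0 were called (median -0.24), with ABH1, the large subunit of the nuclear cap-binding complex, at -0.66 ± 0.19 (SD, n = 4, adjusted p = 0.0415) and the chromatin remodeller CHR5 at -0.38. The list of membrane transport genes, which does not hold the called gene ABCC13 or the uncalled ABCI4 (0.46), had 3 tested genes and 0 called (median -0.49), with the transporter gene ABCG5 at -0.53 and G3Pp5, a glycerol-3-phosphate permease, at -0.49. Of 2 genes of organic acid metabolism 0 were called, with NAD-ME1, a mitochondrial malic enzyme, at -0.24 and the aconitase ACO3 at 0.31. Of 3 protein kinase genes, 1 was called, AT2G07180. At an unadjusted p under 0.05, limma found ABH1, ABCG5 and G3Pp5 below 0 and AT2G07180 above 0 in these groups, and 0 genes of DNA replication or organic acid metabolism. Over all genes tested, 18.2% were below 0 and 15.1% above 0 at that p.

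AT2G07687, AT2G07707, AT2G07675 and AT2G07751 were, with AGT and PSBX, the brightest genes not called, and these 4 lie in the mitochondrial stretch. They were at -0.62, 0.00, 0.16 and 0.59. AT2G07707 was saturated on 4 arrays in vim1,2,3 and 1 in Col, AT2G07675 on 2 and 1, and AT2G07751 on 2 and 0, so these ratios are capped too. AT2G07687 had an adjusted p of 0.0403, but its spots were saturated on every array in vim1,2,3 and on 2 in Col, so its ratio does not measure a fall. The last tested gene, AT2G13690, was at -0.35 ± 0.38 (SD, n = 4) and not called.

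Outside the region, 19 genes of the machinery that silences heterochromatin were tested beside these values. Only VIM1 was called (lower, -1.76 ± 0.77, SD, n = 4, adjusted p = 0.0254). At an unadjusted p under 0.05 in limma the list had 1 gene above 0, the histone gene HTA7 (0.74). It had 3 genes below 0, which were VIM1, MET1 (-0.49) and ATXR5 (-0.48). Over all genes tested, 15.1% were above 0 and 18.2% below 0 at that p, so the list did not stand out by these counts. The median of the 19 was -0.13, against -0.05 over all genes.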

How the data were processed

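RNA of vim1,2,3 (Cy5) and Col (Cy3) seedlings was read on 4 Agilent arrays, 1 array per replicate. Quantification was by Agilent Feature Extraction (version 10.7.3.1), and the deposited spot intensity is a median over pixels, linear, per the file headers. The deposited processed intensity was background-subtracted and dye-normalized by the authors' scanner software, and its log ratio is a log10 value, per the file headers. A log2 ratio per probe stands in the authors' deposited series matrix, and its normalization is not stated in the labels used here. Its columns correlated at 0.998 to 0.999 with the scanner's ratio on the same scale and in the same direction, their medians were -0.09, 0.01, -0.04 and -0.03 on arrays 1 to 4, and 8 probes that differed by more than 1 were not used.

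Median intensities were corrected with normexp (offset 50) and normalized by loess within each array, with weight 0 for control spots (limma 3.58.1 and R 4.3.3, read with the package data.table, version 1.17.8). The planned design named mean signals, for which medians were used. Spots marked as outliers were left out after normalization. Per-channel signals were further scaled between arrays (Aquantile). Probes were named by unversioned accession through RefSeq's gene list for the assembly TAIR10.1, and 34185 of 43603 matched. The array header gives an older build, so no coordinates are printed. The brightest tested probe stood for a gene. The log2 ratios were fitted with an intercept (lmFit, eBayes), and p-values were adjusted by Benjamini-Hochberg over 20555 genes. The array pairs its 2 RNAs and so acts as the replicate block. The 4 arrays shared a slide, so no batch could be tested. The fit was tested on simulated data. A bound divides the bright group's mean by a floor for the dim group, taken per array as its own signal or, if higher, the dimmest signal of any probe well above background.

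The genes and lists were chosen with earlier results of these data known. Named genes are every called gene, up to 3 called genes of each list or otherwise its 2 with the smallest p, the 6 brightest genes not called, the first and the last tested gene and VIM1, VIM2 and VIM3. HTA7 and other uncalled genes outside this rule were named after their values were seen.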

Additional observations from a re-analysis of the deposited data

Results flagged for a closer look

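Among 54 sets of 4 values checked, 1 held a value far from the other 3, where chance alone marks about 1 set in 20. The log2 ratio of AT2G07687 was -0.50 on array 2, while arrays 1, 3 and 4 gave -0.66, -0.65 and -0.67. Its vim1,2,3 signal was saturated on every array, and its Col signal on 2.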

How the results depend on the processing

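The alternatives were the series matrix, the processed signals of the scanner, another normexp offset, median centring in place of loess, other filters on dim probes, the mean of a gene's probes, no doubly saturated probes, array weights, no replicate block, narrower limits of the region and leaving out each array. Chosen after seeing the data were the limits of the mitochondrial stretch by gene order, the requirement that Col be well above background on at least 3 arrays, and the use of arrays 1 and 2 only. No called value changed sign. The share of pericentromeric genes called higher exceeded that of the other chromosome 2 genes in all 16 alternatives that gave both, by 2.28 to 13.3 times. The 13.3 came from arrays 1 and 2 only, where few genes were called. With Col well above background on at least 3 arrays the share was 2.515 times as large. The share called lower also exceeded that of the other chromosome 2 genes, in 15 of the 16. All these alternatives draw on the same 4 arrays. Leaving out 1 array gave 9 to 18 pericentromeric genes higher and 1 to 7 lower, and 22 to 137 other chromosome 2 genes higher and 4 to 82 lower. On arrays 1 and 2 only, with fewer samples in the fit, limma called 3 of 168 pericentromeric genes higher (1.79%) and 0 lower. Of 2974 other chromosome 2 genes, 4 were higher (0.1345%) and 0 lower. At an unadjusted p under 0.05 in limma, 21 of the 168 were above 0 and 10 below, and 155 and 185 of the 2974. With Col well above background on at least 3 arrays 11 pericentromeric genes were higher, by the loss of 6 dim genes. Median centring gave 17 higher and 10 lower pericentromeric genes. The other chromosome 2 genes numbered 69 higher and 116 lower with the processed signals, 81 and 105 with the series matrix and 86 and 126 with median centring. In those 3 settings all genes tested had a median of -0.14, -0.11 and -0.16, against -0.05 with normexp and loess. With no replicate block they numbered 47 and 17, and the pericentromeric genes 16 and 5. That block is the array itself, and AT2G05632 (adjusted p = 0.102) and AT2G10920 (0.0644) lost their calls without it. The cause of these changes was otherwise not tested. Without array 3 or array 4, 10 and 13 of the 23 called genes kept their call. Dim signals limit the ratios of 6 higher genes, and saturation those of AT2G07180, AT2G10920 and AT2G07676.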
